A study of Homo sapiens with 6 samples.

Results

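The transcripts of the mitochondrial genome were examined in CAL27 cells, an established line from a human tongue squamous cell carcinoma. The genes were taken by position, as every row of the count table on chromosome M, whatever its level: 37 of 32353 genes, of which 13 are protein-coding, 2 are ribosomal RNA (rRNA) and 22 are transfer RNA (tRNA) genes. The compared groups were 3 libraries of CAL27 cells overexpressing RBM24, an RNA-binding protein known for its part in splicing and mRNA stability, and 3 libraries of CAL27 cells given a control plasmid. The starting material was total RNA, the library kit is not named in the sources used here, and reads were pairs of 150 nt. Each library held between 53558773 and 68804210 counts on genes. Both groups are the same line, and the labels do not give the vector, the time after transfer, or whether the libraries came from separate cultures, so p-values may measure technical spread only. Beyond the plasmid, the labels give no difference between the groups.

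RBM24 itself had 8651, 5918 and 7648 counts in the overexpressing libraries, against 129, 159 and 220 counts in the control libraries. This is a log2 fold change of 5.34 (SE 0.0995, edgeR adjusted p = 2.16e-15). All 8 squamous epithelial markers were detected, with a summed level of 1852 to 1868 TMM-scaled CPM in overexpressing cells and 1689 to 1790 CPM in control cells. TMM-scaled CPM are counts divided by the library total times a normalization factor (TMM), on a common scale. Fibroblast, immune and endothelial markers summed to at most 16.9, 1.46 and 9.71 CPM in overexpressing cells and at most 16.4, 1.673 and 11.7 CPM in control cells. Control library 1 stood apart on the first principal component (33.0% of the variance), at -33.4, against 9.28 to 15.4 in overexpressing libraries and -4.95 and -0.04 in the other 2 control libraries.

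The human mitochondrial genome is a small circle transcribed from both strands into long precursors that cover many genes. In these precursors most mRNAs and both rRNAs lie directly beside tRNAs, and cutting out the tRNAs by RNase P and ELAC2 releases them. The mature RNAs then reach different levels through their separate stabilities, with LRPPRC and SLIRP among the proteins that hold the mRNAs. All the proteins encoded there are core subunits of the respiratory complexes or of ATP synthase. On GRCh38 with the GENCODE 29 annotation, 28 of the 37 genes lie on the plus strand, whose RNAs are copied from the heavy strand. The other 9, MT-ND6 and 8 tRNA genes, lie on the minus strand. The strand comes from the annotation, and the sources used here do not say whether reads were counted by strand, so reads of a gene and of the RNA antisense to it cannot be told apart.

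The stretch from base 577 to base 3304 shows how tightly these genes are packed and holds 4 of the genes that stood high in control library 1 (MT-TF, MT-RNR1, MT-TV and MT-RNR2). MT-TF, MT-RNR1, MT-TV, MT-RNR2 and MT-TL1 follow each other with 0 bases between neighbours. The tRNA genes of this stretch, and MT-TH further along, are printed 5′ to 3′ on the plus strand, with the anticodon in capitals.
MT-TF, chrM:577-647: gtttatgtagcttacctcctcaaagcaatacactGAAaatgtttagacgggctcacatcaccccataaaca
MT-TV, chrM:1602-1670: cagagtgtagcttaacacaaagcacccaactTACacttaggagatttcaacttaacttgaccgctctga
MT-TL1, chrM:3230-3304: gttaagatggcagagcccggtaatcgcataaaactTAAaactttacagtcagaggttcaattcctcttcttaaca
MT-TH, chrM:12138-12206: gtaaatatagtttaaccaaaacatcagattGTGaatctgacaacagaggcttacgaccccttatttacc
At 59 to 75 nt, each tRNA gene is shorter than a single 150-nt read, so a read counted to it either came from a fragment that short or ran into its neighbour.

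Some coding sequences themselves overlap, and reads there can belong to either gene; of 3 such pairs of mRNAs, MT-ATP6 and MT-CO3 share 1 base, and the longer 2 overlaps are printed. MT-ATP8 and MT-ATP6, whose products are both subunits of ATP synthase, share 46 bases, printed with the start codon of MT-ATP6 and the stop codon of MT-ATP8 in capitals. MT-ND4L and MT-ND4, both encoding subunits of complex I, share 7 bases, printed in capitals with their flanks.
MT-ATP8/MT-ATP6, chrM:8527-8572: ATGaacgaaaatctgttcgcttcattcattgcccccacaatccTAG
MT-ND4L/MT-ND4, chrM:10748-10778: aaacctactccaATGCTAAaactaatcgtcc
The FPKM of MT-ATP8 was 0.936, 1.02 and 1.10 times that of MT-ATP6 in overexpressing libraries, against 1.12, 0.992 and 1.06 times in control libraries. The FPKM of MT-ND4L was 0.279, 0.315 and 0.348 times that of MT-ND4 in overexpressing libraries, against 0.307, 0.298 and 0.345 times in control libraries. Both ratios overlapped between the groups. Genes that overlap can lie on the same RNA, so these ratios need not compare separate mRNAs. Each protein-coding gene is still counted as 1 mRNA in this report.

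The 13 mRNAs spanned a wide range of level per length (FPKM, fragments scaled by gene length and library total), although 12 of them come from the same strand. MT-CO2, a catalytic subunit of complex IV, was highest at 12397 ± 385 FPKM in overexpressing cells and 13314 ± 748 FPKM in control cells (SD, n = 3 each). MT-CO3 of the same complex followed at 11098 ± 605 FPKM in overexpressing cells and 12199 ± 648 FPKM in control cells. MT-ND4 of complex I came next, at 9587 ± 352 FPKM in overexpressing cells and 10070 ± 520 FPKM in control cells. Each of these stood above the next in the order in 6 of 6 libraries. MT-CO1, MT-ATP8 and MT-ATP6 followed, at 7722, 7230 and 7094 FPKM in overexpressing cells and 8627, 8051 and 7625 FPKM in control cells. The ranges of MT-CO1 and MT-ATP8, and those of MT-ATP8 and MT-ATP6, overlapped in both groups, so the order of these neighbours was not fixed by the data.

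MT-ND2, MT-ND3 and MT-CYB lay between 4212 and 4639 FPKM in overexpressing cells and between 4612 and 4847 FPKM in control cells. Below them came MT-ND1, at 3441 ± 77.2 FPKM in overexpressing cells and 3357 ± 183 FPKM in control cells, and MT-ND4L, at 3016 ± 402 FPKM in overexpressing cells and 3186 ± 290 FPKM in control cells. MT-ND5 was the lowest of the heavy-strand mRNAs, at 955 ± 67.5 FPKM in overexpressing cells and 1034 ± 39.5 FPKM in control cells. MT-ND6, the single mRNA of the minus strand, averaged 349 ± 36.2 FPKM in overexpressing cells and 343 ± 16.8 FPKM in control cells, below every other mRNA in 6 of 6 libraries. Its sequence also stands apart, with 35.6% G against 6.28% to 16.2% in the 12 heavy-strand mRNAs. The mitochondrial rRNAs, known as the most abundant mitochondrial RNAs in total RNA, were at lower FPKM than most mRNAs in these libraries. MT-RNR2 averaged 1878 ± 56.5 FPKM in overexpressing cells and 2436 ± 903 FPKM in control cells, and MT-RNR1 averaged 602 ± 4.07 FPKM in overexpressing cells and 1090 ± 757 FPKM in control cells. The sources used here do not name the library kit, and the part of any selection of RNA in this order was not tested.

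**Figure D1:**
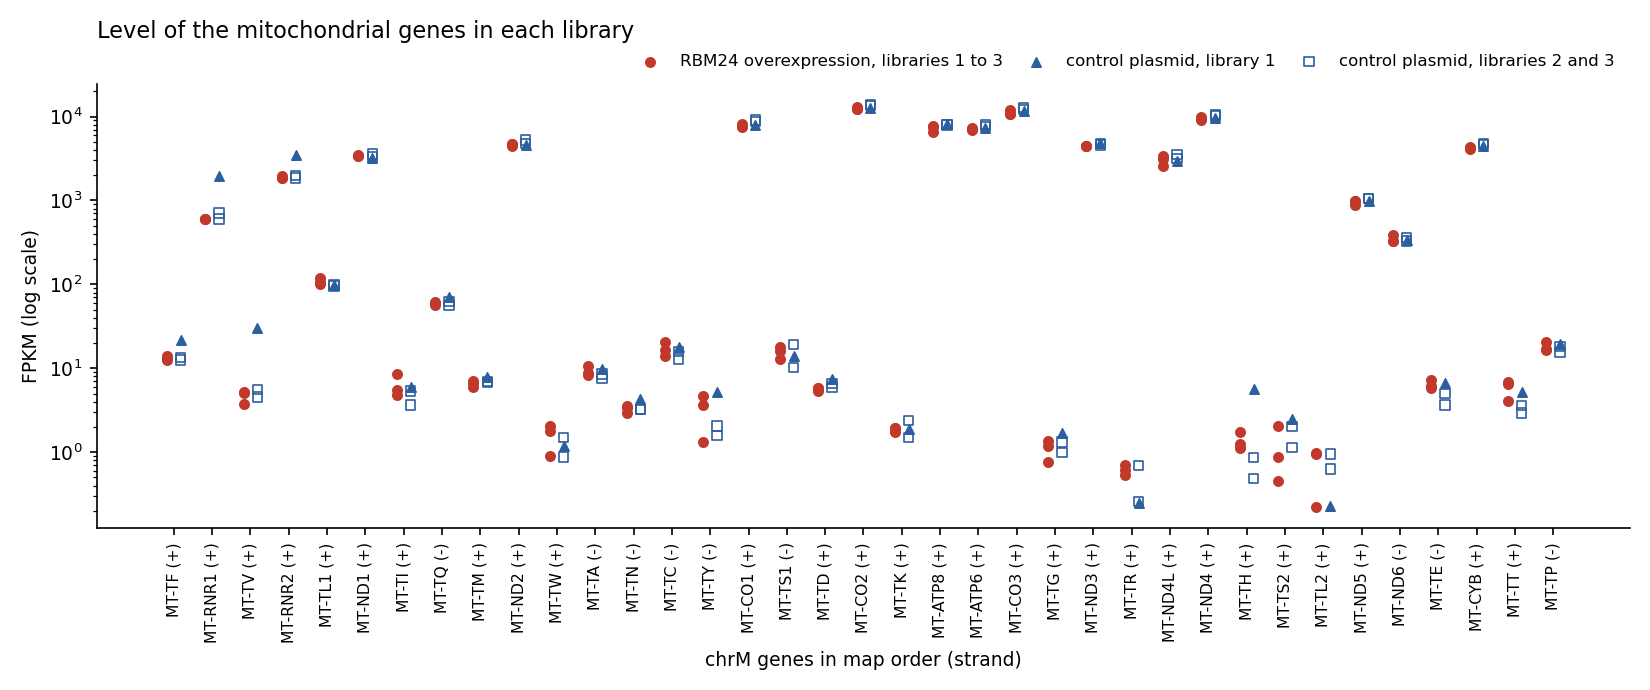
FPKM of the mitochondrial genes in each library on a log axis, RBM24 overexpression left of control plasmid. Among the 13 mRNAs and 2 rRNAs, MT-CO2 is highest and MT-ND6 lowest. Control library 1 lies above the other 5 libraries for MT-RNR1 and MT-RNR2.

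Together the mitochondrial genes took 7.26%, 7.75% and 7.49% of all gene counts in overexpressing libraries, against 8.13%, 8.40% and 8.05% in control libraries. Every overexpressing library lay below every control library. The means were 7.497% ± 0.245 and 8.19% ± 0.182 (SD, n = 3 each), a difference of -0.70 percentage points, with p = 0.1 in a two-sided exact permutation test, the smallest p that 3 against 3 libraries allow. As a share of summed FPKM, which weights short genes more, the difference was -1.66 percentage points (exact permutation p = 0.1). Counting error is far smaller than these differences, with 95% exact binomial intervals within 0.00732 percentage points of each share; such intervals cover counting error only. In bulk RNA, less mitochondrial RNA per cell, more nuclear RNA per cell and fewer cells of a type cannot be told apart.

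The mRNAs made up most of that share, at 6.89%, 7.37% and 7.10% in overexpressing libraries and 7.33%, 7.99% and 7.67% in control libraries. Here overexpressing library 2 lay above control library 1, and the difference of -0.55 percentage points had p = 0.2 in the exact permutation test. The rRNAs took 0.371%, 0.376% and 0.389% in overexpressing libraries and 0.796%, 0.405% and 0.372% in control libraries (exact permutation p = 0.3). Control library 1 was alone in its rRNA share, and the difference of -0.15 percentage points became -0.01 without it. With control library 1 left out, the difference in the mitochondrial share was -0.73 percentage points, and that in the mRNA share was -0.72. The tRNAs took 0.00224%, 0.00221% and 0.00233% in overexpressing libraries, against 0.00264%, 0.00214% and 0.00197% in control libraries (exact permutation p = 1). The difference in means was 1.4e-05 percentage points with control library 1 and 0.000208 without it, when every overexpressing library lay above both remaining control libraries. By strand, the 28 plus-strand genes took 7.24%, 7.73% and 7.46% in overexpressing libraries and 8.11%, 8.38% and 8.03% in control libraries (exact permutation p = 0.1). The 9 minus-strand genes took 0.0196%, 0.0197% and 0.0232% in overexpressing libraries and 0.0207%, 0.0214% and 0.0194% in control libraries (exact permutation p = 0.8).

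**Figure D2:**
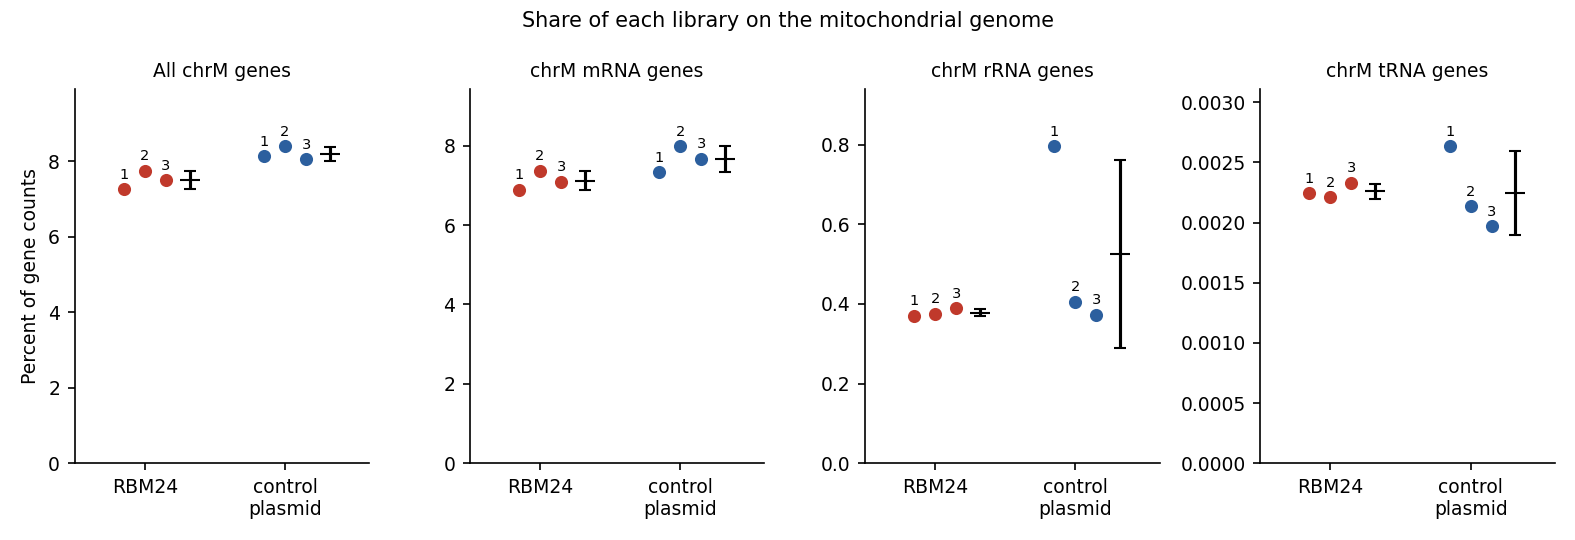
Percent of all gene counts on mRNA, rRNA and tRNA genes of the mitochondrial genome in each library, RBM24 overexpression left of control plasmid, with the mean and SD of 3 libraries. The rRNA share of control library 1, 0.796%, lies above the 0.371% to 0.405% of the other 5 libraries.

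No mitochondrial gene passed the test. In edgeR's quasi-likelihood test over 17887 genes, 0 of the 30 mitochondrial genes tested were called higher and 0 lower at an adjusted p under 0.05, beside 0.855% of all tested genes called higher and 0.682% called lower. At an unadjusted p under 0.05, 0 were higher and 10 lower (7 mRNAs, both rRNAs and 1 tRNA), beside 6.62% of all tested genes higher and 6.40% lower. DESeq2, as an alternative, called 2 lower, MT-CO1 (adjusted p = 0.0327) and MT-CYB (adjusted p = 0.0444), and 0 higher, beside 0.977% of all genes it tested called lower and 1.36% higher. The 7 genes left out by the filter on low counts were all tRNAs, with mean counts of at most 8.5.

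All 13 mRNAs were tested and 12 had a negative log2 fold change of TMM-scaled counts, with a median of -0.14 and a range of -0.19 to 0.0027, beside a median of -0.0037 over all tested genes. For 9 of the 13, every overexpressing library lay below every control library in CPM, beside 8.62% of all tested genes. In FPKM, 4 of the 13 did so (MT-ATP8, MT-ATP6, MT-ND3 and MT-CYB). The share of all tested genes that did so in FPKM was not computed, and 8.62% holds for CPM only. Nuclear mRNAs of high level were set beside them. Of the 92 nuclear protein-coding genes with a mean of at least 1000 CPM, 18 (19.6%) had every overexpressing library below every control library, 3 (3.26%) had the opposite, and 71 had a negative log2 fold change, with a median of -0.08. Of the same 92, edgeR called 0 higher and 1 (1.09%) lower, and 2 (2.17%) were higher and 13 (14.1%) lower at an unadjusted p under 0.05. The 13 mRNAs are counted as 1 per protein-coding gene. They come from shared precursors, and some of the genes overlap, so they are not 13 independent observations.

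Complex IV, cytochrome c oxidase, hands electrons to oxygen at the end of the chain, and its 3 mitochondrial mRNAs separated between the groups. MT-CO1 (chrM:5904-7445) had 12315, 13330 and 12534 CPM in overexpressing libraries, against 13748, 15416 and 14450 CPM in control libraries. Its log2 fold change was the most negative of the mRNAs, -0.19 (SE 0.0683, edgeR adjusted p = 0.218), and -0.23 without control library 1 (adjusted p = 0.0702). MT-CO3 had 9080, 9871 and 8950 CPM in overexpressing libraries, against 10150, 11144 and 10075 CPM in control libraries. MT-CO2 had 8962, 9375 and 8854 CPM in overexpressing libraries, against 9534, 10553 and 9775 CPM in control libraries. Their log2 fold changes were -0.17 (SE 0.0683, edgeR adjusted p = 0.292) for MT-CO3 and -0.14 (SE 0.0652, edgeR adjusted p = 0.400) for MT-CO2. None of the 3 passed the test.

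Both mitochondrial subunits of ATP synthase, which makes ATP from the proton gradient, separated as well. MT-ATP8 had 1458, 1637 and 1703 CPM in overexpressing libraries, against 1888, 1800 and 1778 CPM in control libraries. MT-ATP6, which forms part of the proton channel, had 5123, 5281 and 5087 CPM in overexpressing libraries, against 5551, 5971 and 5507 CPM in control libraries. The log2 fold changes were -0.19 for MT-ATP8 (SE 0.0643, edgeR adjusted p = 0.198, the smallest among the mRNAs) and -0.14 for MT-ATP6 (SE 0.0613, edgeR adjusted p = 0.351). MT-CYB encodes cytochrome b, the mitochondrial subunit of complex III. It had 5049, 5248 and 5115 CPM in overexpressing libraries, against 5612, 6028 and 5618 CPM in control libraries, without overlap. Its log2 fold change was -0.16 (SE 0.0609, edgeR adjusted p = 0.247).

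Complex I, which takes electrons from NADH, draws 7 of the 13 mRNAs, and these were the more mixed group. MT-ND4 had 13658, 14568 and 14135 CPM in overexpressing libraries, against 14602, 16014 and 14887 CPM in control libraries. MT-ND3 had 1666, 1629 and 1621 CPM in overexpressing libraries, against 1840, 1832 and 1685 CPM in control libraries. MT-ND5 had 1710, 1916 and 1920 CPM in overexpressing libraries, against 1995, 2120 and 2031 CPM in control libraries. In all 3 the groups stood apart, with log2 fold changes of -0.10, -0.12 and -0.15 in the order given (edgeR adjusted p of 0.551, 0.373 and 0.309).

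The other 4 overlapped. MT-ND2 had 5062, 5295 and 5143 CPM in overexpressing libraries, against 5253, 6010 and 5301 CPM in control libraries. MT-ND4L had 822, 989 and 1060 CPM in overexpressing libraries, against 966, 1029 and 1106 CPM in control libraries. Their log2 fold changes were -0.10 for MT-ND2 and -0.11 for MT-ND4L (edgeR adjusted p of 0.584 and 0.603). MT-ND1 (chrM:3307-4262), the first mRNA after the rRNAs, had 3476, 3599 and 3472 CPM in overexpressing libraries, against 3417, 3751 and 3359 CPM in control libraries, with a log2 fold change of 0.0027 (SE 0.0620). The groups were interleaved for MT-ND1, and the same was true of MT-ND6. MT-ND6 (chrM:14149-14673, minus strand) had 184, 185 and 218 CPM in overexpressing libraries, against 199, 209 and 183 CPM in control libraries, with a log2 fold change of -0.0081 (SE 0.0665), whose sign is positive when libraries are scaled by total counts alone (0.02). Per 100 counts on the heavy-strand mRNAs, MT-ND6 had 0.270, 0.255 and 0.314 counts in overexpressing libraries, against 0.267, 0.256 and 0.243 in control libraries, a log2 difference of 0.13 (exact permutation p = 0.3).

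**Figure D3:**
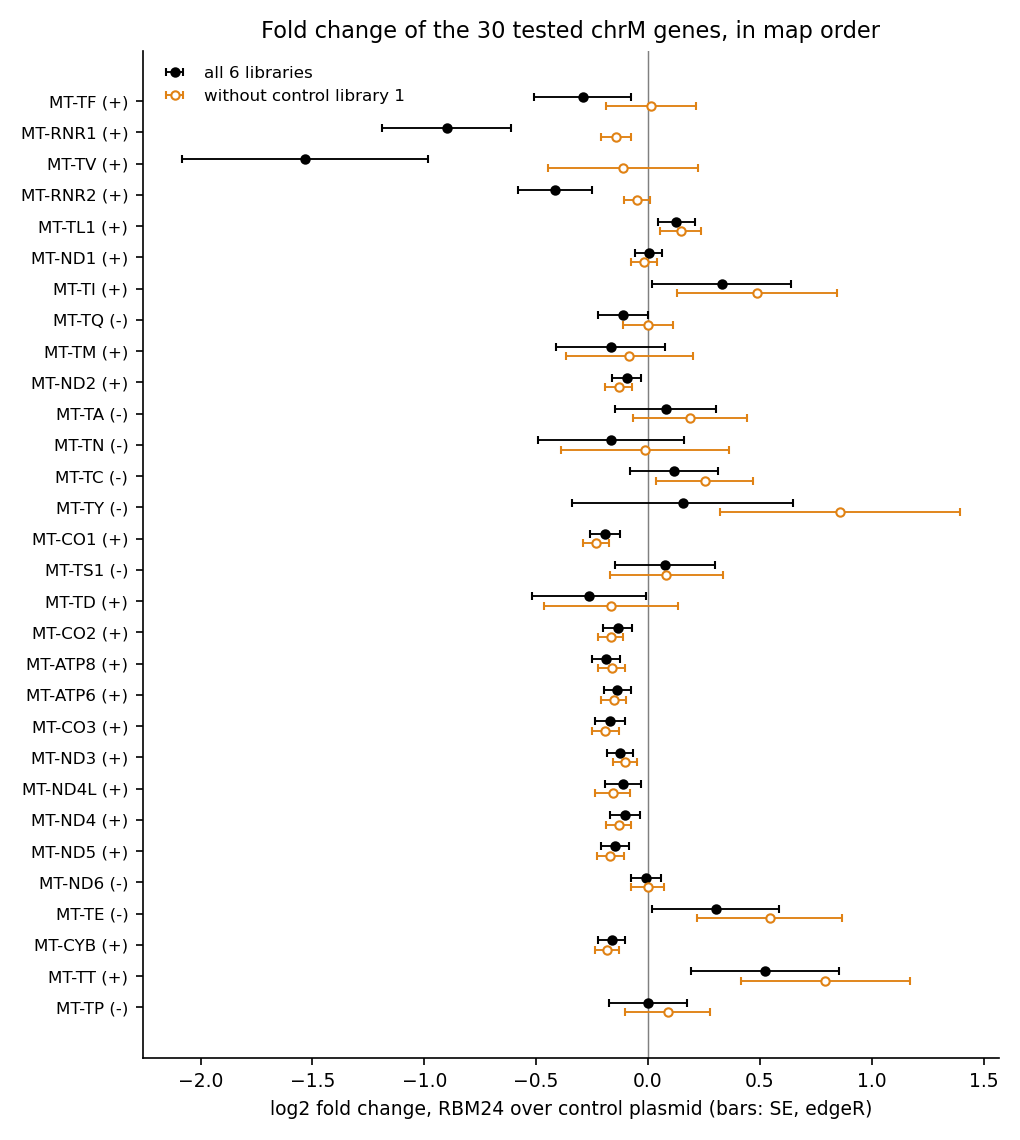
Log2 fold change of TMM-scaled counts, RBM24 overexpression over control plasmid, with SE bars, for the 30 tested mitochondrial genes with all 6 libraries and without control library 1. The mRNAs lie between -0.19 and 0.0027 with all libraries, and MT-RNR1, MT-RNR2 and MT-TV move towards 0 without control library 1.

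Because the mRNAs of complex I and complex IV differed in how far they stood from 0, the make-up of the mitochondrial mRNA pool was also described; the contrast was chosen after the values were seen and has no test. Complex I mRNAs made up 38.8%, 38.6% and 39.5% of the counts on the 13 mRNAs in overexpressing libraries, against 37.8%, 37.8% and 37.7% in control libraries. Complex IV mRNAs made up 44.3%, 44.7% and 43.5% in overexpressing libraries, against 44.7%, 45.3% and 45.3% in control libraries. The complex I share did not overlap between the groups, and the complex IV share did not either, but the gap was small: the highest overexpressing value was 44.67% and the lowest control value 44.72%. MT-CYB and the ATP synthase mRNAs overlapped.

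Within the pool, 2 mRNAs had a higher share in every overexpressing library than in every control library, 1 a lower share, and 10 overlapped. In TMM-scaled CPM, 9.53% of all tested genes lay higher without overlap and 8.62% lower. No such count over all genes was made for shares of the pool. The shares are parts of the same total, so they are not independent. MT-ND1 made up 5.07%, 4.94% and 4.97% in overexpressing libraries, against 4.57%, 4.58% and 4.44% in control libraries. MT-ND4 made up 19.92%, 19.98% and 20.25% in overexpressing libraries, against 19.5%, 19.6% and 19.7% in control libraries. MT-CO1 made up 17.96%, 18.28% and 17.95% in overexpressing libraries, against 18.4%, 18.8% and 19.1% in control libraries. When libraries were scaled to the counts on the 13 mRNAs, the log2 fold changes were 0.14 for MT-ND1 (edgeR adjusted p = 0.198), 0.03 for MT-ND4 (edgeR adjusted p = 0.769) and -0.05 for MT-CO1 (edgeR adjusted p = 0.623). None passed the test on that scale either, which moves the median of all genes by 0.14.

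**Figure D4:**
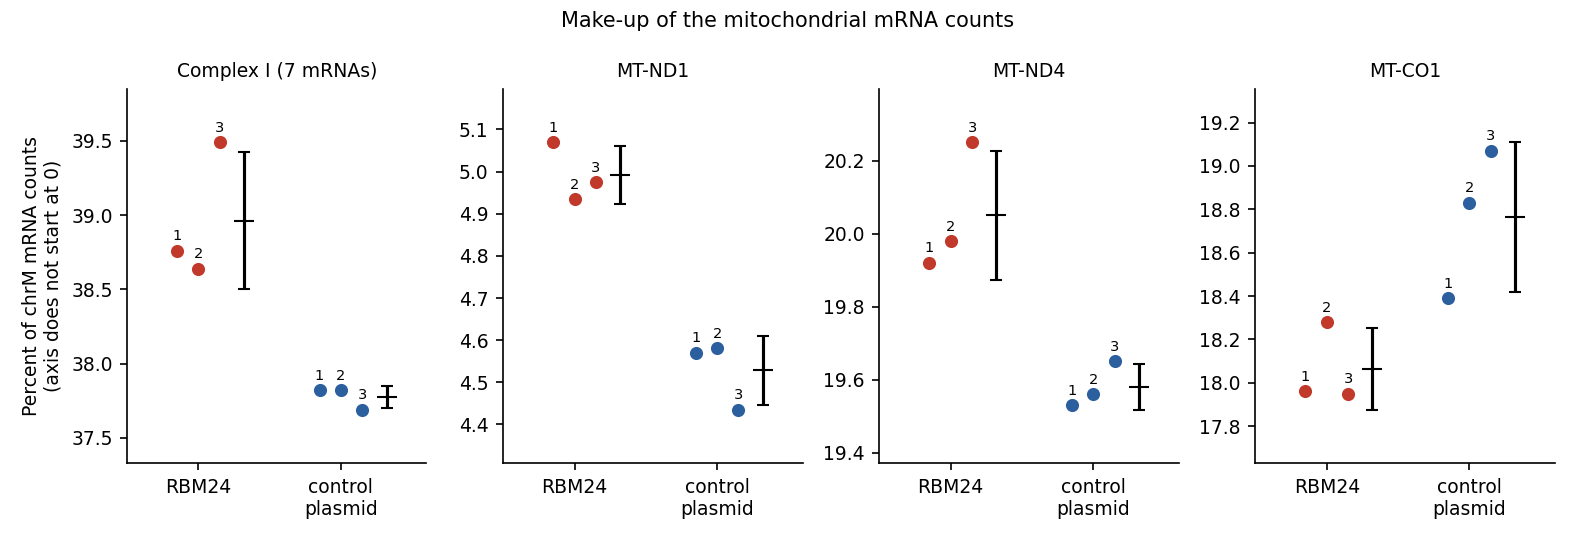
Shares, in percent, of the counts on the 13 mitochondrial mRNAs in each library, RBM24 overexpression left of control plasmid. The axes do not start at 0. Complex I is at 38.6% to 39.5% in overexpressing libraries and 37.7% to 37.8% in control libraries.

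The rRNAs had the most negative log2 fold changes outside the tRNAs, and both rested on control library 1. MT-RNR1 (chrM:648-1601), the rRNA of the small subunit of the mitochondrial ribosome, had 618, 617 and 607 CPM in overexpressing libraries, against 2084, 744 and 610 CPM in control libraries. MT-RNR2 (chrM:1671-3229), the rRNA of the large subunit, had 3073, 3099 and 3218 CPM in overexpressing libraries, against 6033, 3410 and 3065 CPM in control libraries. Control library 1 was 3.26 times the mean of the other 5 libraries for MT-RNR1 and 1.90 times for MT-RNR2, and control library 3 lay within or below the overexpressing libraries for both genes. The log2 fold changes were -0.90 for MT-RNR1 (SE 0.290, edgeR adjusted p = 0.162) and -0.41 for MT-RNR2 (SE 0.165, edgeR adjusted p = 0.286). Without control library 1 they were -0.14 (adjusted p = 0.426) and -0.05 (adjusted p = 0.795). Without control library 3 they were -1.20 (adjusted p = 0.015) and -0.59 (adjusted p = 0.047), past the threshold, beside 1.09% of all genes called lower in that fit.

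Other short or structured RNAs stood high in the same library. MT-TV, the valine tRNA gene between the rRNA genes whose sequence is printed above, had 27, 15 and 23 counts in overexpressing libraries, against 128, 23 and 21 counts in control libraries. Control library 1 was 6.45 times the mean of the other 5 libraries for MT-TV. The log2 fold change of MT-TV was -1.53 (SE 0.550, edgeR adjusted p = 0.222), -0.11 without control library 1 and -1.97 (adjusted p = 0.045) without control library 3. MT-TF, the phenylalanine tRNA gene just before MT-RNR1, had 70, 58 and 59 counts in overexpressing libraries and 95, 57 and 60 counts in control libraries, with a log2 fold change of -0.29 (edgeR adjusted p = 0.615) and 0.01 without control library 1. MT-TH, the histidine tRNA gene after MT-ND4, had 9, 5 and 5 counts in overexpressing libraries and 24, 2 and 4 counts in control libraries. MT-TL1, which ends the same packed stretch, did not stand high in control library 1, at 0.981 times the mean of the other 5. MT-TY, for tyrosine, and MT-TS2, for serine, were at 2.02 and 1.97 times that mean, on 21 and 9 counts in control library 1.

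Nuclear small structured RNA genes (1095 genes of the small nuclear, small nucleolar and like types) took 0.0433% of gene counts in control library 1 and 0.00614% to 0.00813% in the other 5 libraries, a ratio of 6.18 to their mean. A list of such RNAs, 9 of whose 12 members are in the table and which RN7SL1 leads, summed to 12.8 to 24.8 CPM in overexpressing libraries and 12.3 to 253.5 CPM in control libraries, with control library 1 the highest. The part of this library's small RNAs in the rRNA result was not tested. Per 100 counts on the mitochondrial mRNAs, the rRNAs had 5.38, 5.10 and 5.48 counts in overexpressing libraries and 10.9, 5.07 and 4.85 counts in control libraries. That log2 ratio differed by -0.28 (exact permutation p = 1) and by 0.10 without control library 1, so its sign rested on that library. MT-RNR2 had 497, 502 and 531 counts per 100 counts on MT-RNR1 in overexpressing libraries, against 289, 458 and 502 in control libraries (exact permutation p = 0.3). The log2 difference of that ratio was 0.33 with control library 1 and 0.09 without it.

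**Figure D5:**
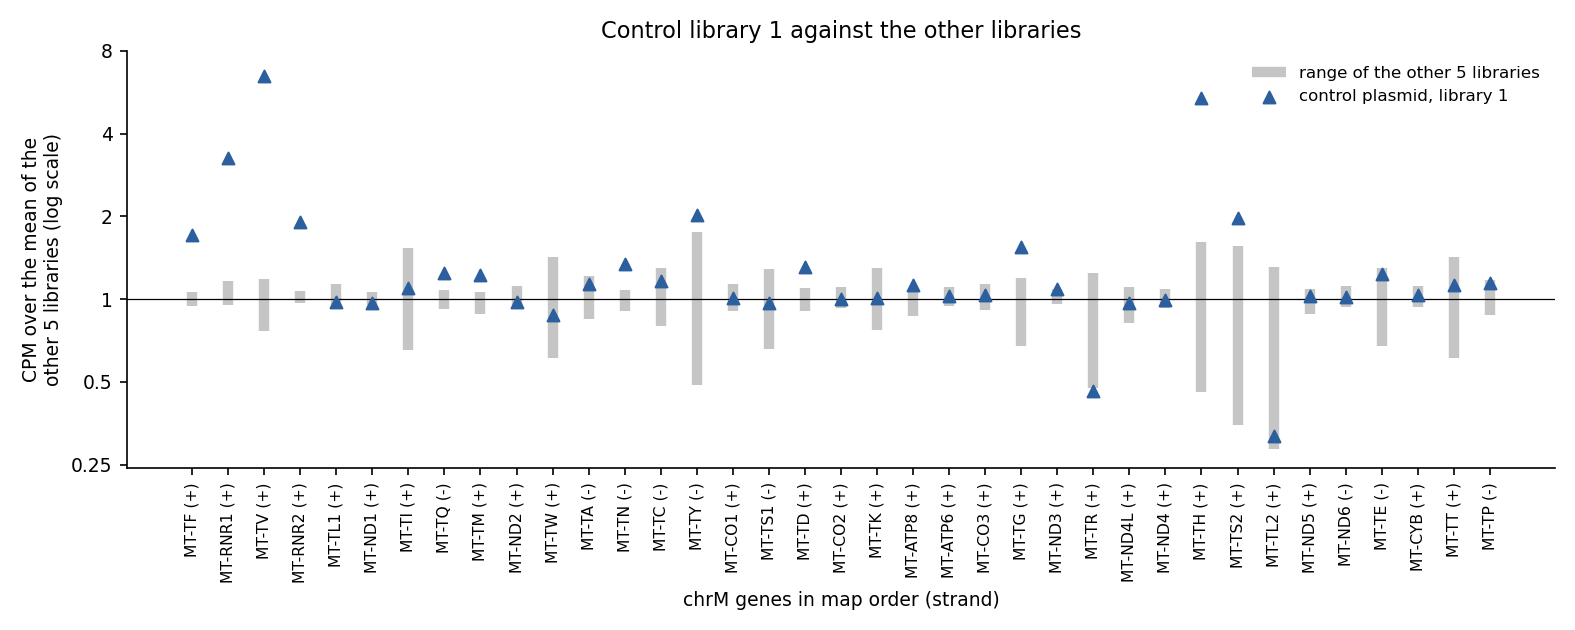
Level of each mitochondrial gene in control library 1 over its mean in the other 5 libraries, in TMM-scaled CPM on a log axis. MT-TV at 6.45, MT-TH at 5.39, MT-RNR1 at 3.26, MT-TY at 2.02, MT-TS2 at 1.97 and MT-RNR2 at 1.90 lie highest, while the mRNAs lie between 0.965 and 1.13.

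The tRNAs were sparsely covered, with 1 to 589 counts per gene and library, and 15 of 22 were tested. Their log2 fold changes had a median of 0.08 and a range of -1.53 to 0.52, with 7 negative and 8 positive, and 0 were called. MT-TL1, a leucine tRNA gene and a common site of disease mutations, was the highest, at 109 ± 9.70 FPKM in overexpressing cells and 97.6 ± 1.32 FPKM in control cells. It had 566, 457 and 589 counts in overexpressing libraries, against 453, 427 and 493 counts in control libraries. Its FPKM values did not overlap, but its TMM-scaled counts did (log2 fold change 0.13, SE 0.0841, edgeR adjusted p = 0.566). MT-TQ, the glutamine tRNA gene on the minus strand, followed at 59.8 ± 2.24 FPKM in overexpressing cells and 63.2 ± 7.96 FPKM in control cells, and both stood above the next in order in 6 of 6 libraries.

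Among the other tested tRNAs, MT-TD, for aspartate, was the single one whose overexpressing libraries all lay below the control libraries in CPM. This is 1 of the 15 tested tRNAs, beside 8.62% of all tested genes. It had 27, 23 and 26 counts in overexpressing libraries, against 31, 24 and 30 counts in control libraries (log2 fold change -0.26, edgeR adjusted p = 0.720). MT-TT, for threonine, had the highest log2 fold change, 0.52 (SE 0.332, edgeR adjusted p = 0.547), from 20, 26 and 28 counts in overexpressing libraries and 21, 14 and 13 counts in control libraries. MT-TI, MT-TE, MT-TY, MT-TC, MT-TA and MT-TS1 had log2 fold changes of 0.08 to 0.33, and MT-TP, MT-TQ, MT-TN and MT-TM of -0.17 to -0.0009. The 7 tRNAs below the filter, MT-TW, MT-TK, MT-TG, MT-TR, MT-TH, MT-TS2 and MT-TL2, had mean counts of at most 8.5.

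All 7 of these untested tRNAs are on the plus strand, while all 8 minus-strand tRNAs passed the filter. The median level was 12.01 FPKM (range 3.09 to 61.5) over the 8 minus-strand tRNAs and 3.37 FPKM (range 0.508 to 103) over the 14 plus-strand ones, as means of all 6 libraries. The minus-strand tRNA genes lie opposite the heavy-strand precursors, and their reads cannot be told apart from those of the opposite strand. Between the groups, 0 of the 9 tested minus-strand genes were called, with 4 negative and 5 positive log2 fold changes and a median of 0.08. The 21 tested plus-strand genes had 17 negative ones and a median of -0.15. The strands differ in class, as the plus-strand set holds 12 mRNAs, 2 rRNAs and 7 tRNAs. Its 7 tRNAs had 4 negative and 3 positive values and a median of -0.17, or 0.01 without control library 1. The 8 minus-strand tRNAs had 3 negative and 5 positive values and a median of 0.08, or 0.14 without control library 1. Strand and class were not separated by a test.

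The nuclear genome holds copies of mitochondrial genes, and reads may be shared between copy and original. Of the 57 such copies listed, 9 were tested, and 0 were called higher or lower in edgeR's quasi-likelihood test. At an unadjusted p under 0.05, 3 were lower and 0 higher, beside 6.40% and 6.62% of all tested genes. DESeq2 called 1 lower, MTATP6P1 (adjusted p = 0.012), beside 0.977% of all genes it tested. MTATP6P1, on chromosome 1, had 672, 723 and 664 CPM in overexpressing libraries, against 773, 809 and 775 CPM in control libraries (log2 fold change -0.20, SE 0.0550, edgeR adjusted p = 0.102). Its counts were 13.11%, 13.7% and 13.04% of those on MT-ATP6 in overexpressing libraries, against 13.9%, 13.6% and 14.1% in control libraries, a ratio that lay between 13.04% and 14.06% over all 6 libraries. MTCO1P12, also on chromosome 1, had 41.1, 42.6 and 46.4 CPM in overexpressing libraries, against 69.3, 50 and 48.9 CPM in control libraries (log2 fold change -0.37, SE 0.0998, edgeR adjusted p = 0.0880). It was 0.334%, 0.319% and 0.371% of MT-CO1 in overexpressing libraries, against 0.504%, 0.324% and 0.338% in control libraries, highest in control library 1. Its log2 fold change was -0.19 without control library 1 (adjusted p = 0.187), and it was called lower without control library 2 (-0.44, adjusted p = 0.0375) or control library 3 (-0.46, adjusted p = 0.0256). MTND2P28 was 2.92%, 3.12% and 3.46% of MT-ND2 in overexpressing libraries, against 3.52%, 2.86% and 3.25% in control libraries, and the other copies had means of at most 1.44 CPM. The sources used here do not say how reads matching several places were counted.

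The nuclear genes that copy, transcribe, process, stabilise, degrade or translate mitochondrial RNA also gave no call. All 67 listed genes in the table were tested, and edgeR called 0 higher and 0 lower; limma-voom and DESeq2 also called 0. At an unadjusted p under 0.05, 1 was higher and 3 lower, beside 6.62% and 6.40% of all tested genes. In 6 each, every overexpressing library lay above or below every control library, beside 9.53% and 8.62% of all tested genes. The median log2 fold change was -0.02, with 24 positive and 43 negative. Among transcription factors, POLRMT, the mitochondrial RNA polymerase, had a log2 fold change of 0.05 (edgeR adjusted p = 0.835). TFAM, which packs and bends mitochondrial DNA at the promoters, averaged 97.2 ± 4.72 CPM in overexpressing cells and 100.4 ± 5.74 CPM in control cells (SD, n = 3 each; log2 fold change -0.05, edgeR adjusted p = 0.782). TFB2M, which opens the promoters, and TEFM, which keeps the polymerase going, had log2 fold changes of -0.05 and -0.08 (edgeR adjusted p of 0.779 and 0.673).

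Of the panel of genes for RNA processing and stability, TRMT10C is described with the smallest p-values, and the other 7 had log2 fold changes between -0.06 and 0.06. LRPPRC, which with SLIRP binds the mRNAs, averaged 267.4 ± 3.55 CPM in overexpressing cells and 267.9 ± 15.1 CPM in control cells (SD, n = 3 each; log2 fold change -0.0029, edgeR adjusted p = 0.991). SLIRP had a log2 fold change of -0.02, MTPAP, the poly(A) polymerase, of -0.06, PNPT1 and SUPV3L1, which together degrade mitochondrial RNA, of -0.0067 and 0.06, GRSF1, of the RNA granules, of 0.03, and ELAC2, which cuts the tail end of tRNAs, of -0.01. When libraries are scaled by total counts alone, the signs of LRPPRC, SLIRP, PNPT1 and ELAC2 turn positive, at 0.0261, 0.00662, 0.0226 and 0.0144.

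The 6 listed genes with the smallest p included both directions. GTPBP3, which takes part in modifying tRNA wobble bases, averaged 30.6 ± 1.21 CPM in overexpressing cells and 27.6 ± 0.948 CPM in control cells (SD, n = 3 each; log2 fold change 0.15, SE 0.0601, edgeR adjusted p = 0.288). TFB1M, which methylates the small-subunit rRNA, averaged 24.4 ± 0.993 CPM in overexpressing cells and 27.1 ± 1.37 CPM in control cells (SD, n = 3 each; log2 fold change -0.15, SE 0.0631, edgeR adjusted p = 0.310). TRMT10C, a subunit of mitochondrial RNase P, averaged 65.2 ± 2.68 CPM in overexpressing cells and 71.2 ± 3.45 CPM in control cells (SD, n = 3 each; log2 fold change -0.13, SE 0.0530, edgeR adjusted p = 0.311). MRRF, which recycles mitochondrial ribosomes, had a log2 fold change of -0.11 (edgeR adjusted p = 0.325). FASTKD5 and FASTKD1, RNA-binding proteins of mitochondria, had log2 fold changes of 0.11 and -0.12 (edgeR adjusted p of 0.427 and 0.440).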

How the data were processed

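The 6 CAL27 libraries, made from total RNA, were read as 150-nt pairs. Alignment used HISAT2 and GRCh38, per the submitters' processing notes; the sources used here do not give the counter, annotation or strand setting. The deposited count table holds the authors' raw counts per gene. The deposited FPKM table holds values the authors divided by gene length and library total. Columns named NC were taken for the control plasmid group. The counts were fitted in edgeR 4.0.16 under R 4.3.3 (filterByExpr, TMM factors of 0.976 to 1.02, group-only quasi-likelihood F test with 4 residual degrees of freedom, Benjamini-Hochberg over 17887 genes, called at an adjusted p under 0.05). Libraries varied with a biological coefficient of variation of 0.0645. Limma 3.58.1, limma-voom and DESeq2 1.42.0 were alternatives. Fold changes are RBM24 overexpression over control plasmid, and shares were compared with exact permutation tests (scipy 1.17.1). No library was a copy of another (chi-square per gene between libraries at least 4.52). All 37 gene identifiers match GENCODE 29, the source of strands, coordinates and sequences. Scripts were tested on simulated data, where edgeR recovered 46% of genes changed 1.25-fold and 100% of genes changed 4-fold. Of the calls made there, 13.6% were false. Every mitochondrial mRNA, rRNA and tested tRNA is named; of the nuclear list, a panel of 12 genes and the 6 with the smallest p. The members and lists were chosen with earlier results of these data known.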

Additional observations from a re-analysis of the deposited data

How the results depend on the processing

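No mitochondrial gene was called higher under any of the alternatives run. Lower calls among mitochondrial genes numbered 0 in the test reported above. They numbered 3 with no filter on low counts (MT-RNR1, MT-RNR2 and MT-TV, beside 1.05% of all genes), 2 with DESeq2, 2 relative to mitochondrial mRNA (MT-RNR1, log2 fold change -0.78, adjusted p = 0.0191, and MT-TV, -1.41, adjusted p = 0.0353, beside 0.559% of all genes lower and 7.5% higher), and 0 to 3 with 1 library left out, where the 3 came without control library 3 (beside 1.09%). With the replicate number as a block 1 was called, MT-CO1 (adjusted p = 0.0427, beside 0.755%). The labels do not say whether the numbers pair the libraries. Deviations of same-numbered libraries correlated at 0.00724, 0.0555 and -0.00039, and no library correlated best with its own number. Deviations around means of 3 libraries cannot exclude pairing. Paired by number, the exact permutation p was 0.25 for the share difference, the smallest p that 3 pairs allow. The same paired test gave 1 for the rRNA to mRNA ratio. Nuclear copies called lower numbered 2 with no filter, 1 with DESeq2, 1 with the block and 0 to 1 with 1 library left out (1 without control library 2 and 1 without control library 3). Over all genes, 153 were called higher and 122 lower, against 305 and 341 with no filter, 46 and 4 on log2(FPKM + 1), 57 and 5 on log2(FPKM + 0.1), 15 and 4 on log2(FPKM + 1) unfiltered, and 61 to 171 and 29 to 198 with 1 library left out; the cause was not tested. The difference in mitochondrial share stayed between -0.82 and -0.575 percentage points with 1 library left out and was -1.66 as a share of summed FPKM, and the log2 rRNA to mRNA difference ranged from -0.48 to 0.10, positive without control library 1. Of 591 values of single mitochondrial genes, 537 kept direction and call, 43 turned sign and 11 passed the threshold. For the nuclear list, only the genes named above were followed. Of their 306 values, 274 kept both and 32 turned sign, in genes whose log2 fold change lay near 0. Relative to mitochondrial mRNA, a scale that moves the median of all genes by 0.14, signs turned for MT-TQ (0.0237), MT-ND2 (0.043), MT-CO2 (0.00237), MT-ATP6 (0.000725), MT-ND3 (0.0129), MT-ND4L (0.0237), MT-ND4 (0.034), MT-ND6 (0.131) and MT-TP (0.137). By total counts alone, they turned for MT-ND6 (0.0231), MT-TP (0.0287), SLIRP (0.00662), ELAC2 (0.0144), PNPT1 (0.0226) and LRPPRC (0.0261). On log2(FPKM + 1), filtered or not, and then on log2(FPKM + 0.1), the values were 0.0216 and 0.0217 for MT-ND6, 0.0222 and 0.0233 for MT-TP, 0.00865 and 0.00884 for SLIRP, 0.0181 and 0.0193 for ELAC2, 0.023 and 0.0247 for PNPT1, and 0.0269 and 0.0304 for LRPPRC. With a mean count of at least 50, MT-TP was at 0.0038 and LRPPRC at 0.00119, and with limma-voom MT-TP was at 0.00991. With 1 library left out, the log2 fold changes that turned sign ranged from -0.461 to 0.012 for MT-TF, -0.0282 to 0.053 for MT-ND1, -0.0294 to 0.187 for MT-TA, -0.0597 to 0.253 for MT-TC, -0.227 to 0.859 for MT-TY, -0.146 to 0.329 for MT-TS1, -0.0928 to 0.0356 for MT-ND6, -0.118 to 0.088 for MT-TP, -0.0281 to 0.0983 for POLRMT, -0.115 to 0.0426 for SLIRP, -0.0634 to 0.0115 for ELAC2, -0.0617 to 0.0248 for PNPT1, and -0.0491 to 0.024 for LRPPRC. An alternative added after seeing the data, without control library 1 and with totals and TMM factors from genes outside the mitochondrial genome, gave 0.0133 for MT-TF, -0.0158 for MT-ND1, 0.00124 for MT-TQ and 0.0893 for MT-TP. The tRNAs had the lowest depth, at 1 to 589 counts per gene and library.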
